A study of Mus musculus with 4 samples.

Results

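Glycolysis splits glucose into pyruvate and lactate in the cytosol, and is the pathway on which leukocytes lean when they divide or when oxygen is scarce. Glucose enters through transporters, is trapped by hexokinase, and passes down a chain of enzymes that ends at pyruvate kinase and lactate dehydrogenase. Under low oxygen the transcription factor HIF-1 raises many of these genes, while prolyl hydroxylases of the EGLN family use oxygen to mark HIF-1 for destruction. The 10 genes described here cover these steps: the transporters SLC2A1 and SLC2A3, the hexokinase HK2, the chain enzymes ALDOA, TPI1, PGK1, ENO1 and PKM, the lactate dehydrogenase subunit LDHA, and the oxygen sensor EGLN3. They were taken as a set named for their function, and all 10 were found among the 33538 human genes counted.

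Human CD45+ cells were profiled by 3′ scRNAseq from humanised NSG-SGM3 hosts (huNSG-SGM3), immunodeficient mice of the NOD.Cg-Prkdcscid background with the IL2rgtm1Wjl allele, in which the 1Eav transgene drives human IL3, CSF2 and KITLG from a CMV promoter and which were irradiated and engrafted with human CD34+ stem cells. All hosts were labelled as 15 weeks of age, and there was 1 library each of blood from naïve mice without surgery, of blood 7 days after a sham T9 laminectomy, of blood 7 days after T9 spinal cord injury (SCI), and of cord 7 days after SCI. The naïve and sham hosts were male and the SCI hosts of both sexes, and each library held cells of several animals, so that condition, host sex and library cannot be told apart. With 1 library per group no test between groups was possible: the intervals below are 95% intervals of counting error only, and a gene is called higher or lower when its level differs by 2-fold or more (a log2 ratio of at least 1 or at most -1).

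After filtering, 6324 naïve, 4645 sham, 5934 SCI blood and 118 SCI cord cells remained. Their median depth was 3698, 5230 and 4655 UMIs in the 3 blood libraries and 9331 in cord. Levels are given as CPM, the UMIs of a gene scaled to a fixed total of the human UMIs outside ribosomal and mitochondrial genes. Cord and blood were compared after each cell had been thinned at random to 1000 such UMIs, which all 118 cord and all 5934 SCI blood cells reached. The gene of CD45, PTPRC, had a UMI in 97.0%, 99.4% and 98.7% of cells of naïve, sham and SCI blood and in 96.6% of cord cells. In total 21 cell barcodes occurred in 2 or more libraries, 1 of them in both SCI blood and SCI cord. Cell classes came from clusters built without the 10 genes, and are named as resembling a type from marker genes (CD4 T-like, for example). A plasma-like class held 382 naïve, 1 sham and 2 SCI blood cells and is left out of the comparison of classes. Free RNA was low: barcodes with under 10% human UMIs, which are mouse cells, carried 0.0451, 0.0568, 0.0593 and 0.141 UMIs of the 10 genes each in the naïve, sham and SCI blood libraries and in cord, against 9.502, 12.7, 10.5 and 27.8 per human cell.

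The cell classes of blood differed far more in these genes than the 3 blood libraries did. Summed over the 10 genes, the dividing cells (cycling-like, led by UBE2C and TOP2A) stood highest, at 4405, 4833 and 4706 CPM in naïve, sham and SCI blood. B-like cells stood lowest, at 2045, 1918 and 2032 CPM. The lowest cycling-like library was thus above the highest library of every other class, and the highest B-like library below the lowest of every other class but NK-like cells, whose lowest library was at 2047 CPM (1658 to 2500) from 13 cells. Monocyte-like (3133 to 3698 CPM) and basophil or mast-like cells (3169 to 3651 CPM) came next and overlapped each other, and the T cell-like classes lay between 2278 and 3161 CPM. After thinning to 1000 UMIs the cycling-like cells held 4080, 4696 and 4390 CPM and the B-like cells 1905, 1770 and 1964 CPM, while the NK-like cells of sham blood were at 1538 CPM (939.7 to 2376).

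**Figure D1:**
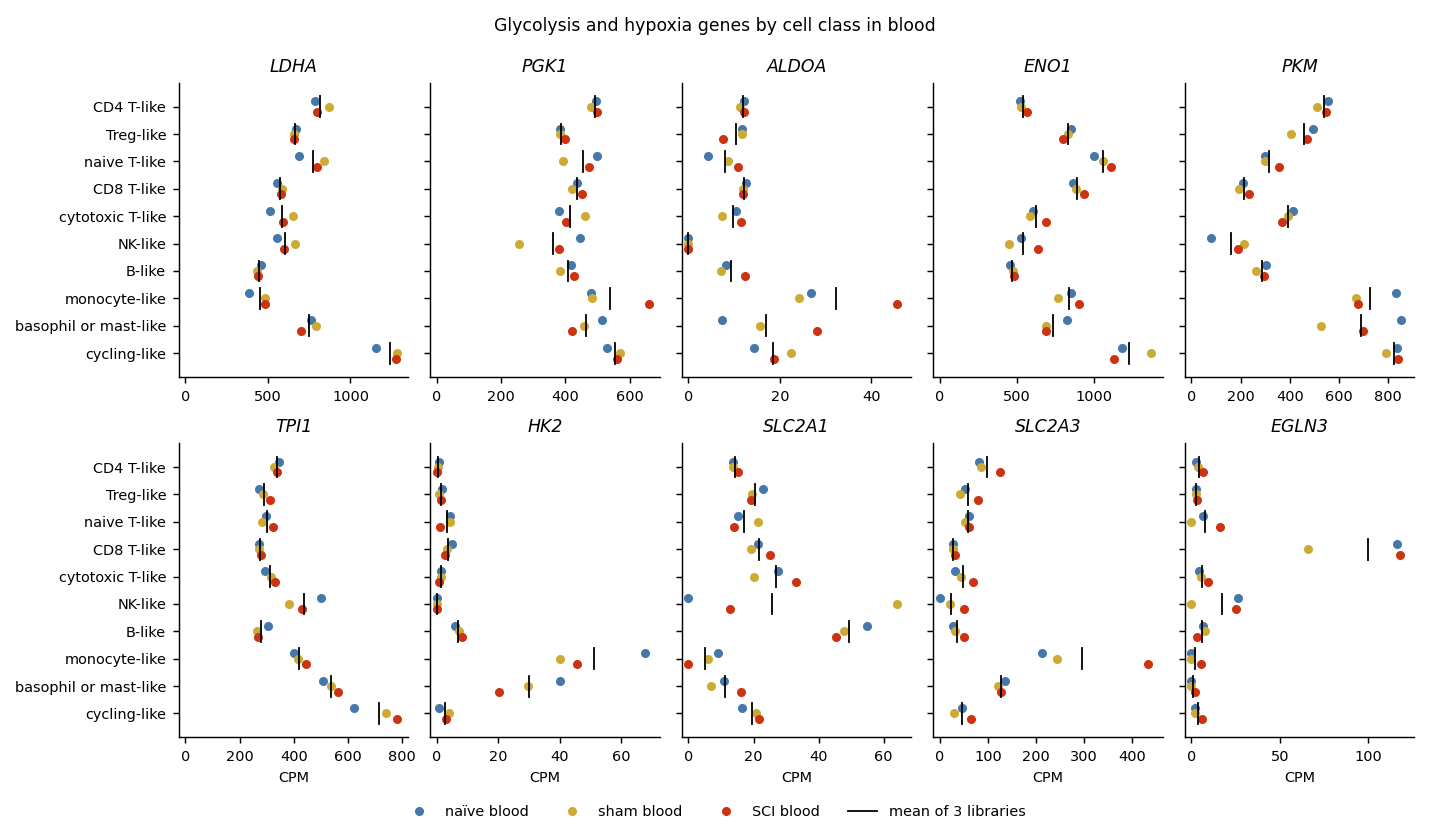
Level in CPM (horizontal axes, each gene on its own scale) of the 10 genes in 10 cell classes of blood, with 1 point for each of the naïve, sham and SCI blood libraries and a bar at their mean. Cycling-like cells stand apart in LDHA, ENO1 and TPI1, monocyte-like cells in SLC2A3 and CD8 T-like cells in EGLN3.

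Lactate dehydrogenase A, which turns pyruvate to lactate, was highest in cycling-like cells, at 1155, 1280 and 1278 CPM in naïve, sham and SCI blood (1238 ± 71.2, SD, n = 3 libraries). CD4 T-like cells followed at 786, 872 and 796 CPM, and monocyte-like (385, 484 and 484 CPM) and B-like cells (460, 433 and 443 CPM) were lowest. The enolase ENO1 was likewise highest in cycling-like cells, at 1182, 1373 and 1131 CPM, and next in naïve T-like cells, at 1002, 1060 and 1112 CPM. Among the T cell-like classes it was lowest in CD4 T-like cells (520, 527 and 567 CPM), the same class in which LDHA was high.

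Triose phosphate isomerase, TPI1, was at 623, 742 and 782 CPM in cycling-like cells and at 507, 539 and 563 CPM in basophil or mast-like cells, and neither range overlapped the next class. The other classes lay at 265 to 500 CPM. Pyruvate kinase M, PKM, which closes the chain, was at 837, 790 and 840 CPM in cycling-like cells, a range that overlapped monocyte-like (668 to 830 CPM) and basophil or mast-like cells (526 to 850 CPM). CD8 T-like cells held 209, 193 and 233 CPM of PKM, below every library of the CD4 T-like class (512 to 557 CPM). Phosphoglycerate kinase, PGK1, showed the flattest profile of the chain enzymes: its class means ran from 361 CPM in NK-like to 554 CPM in cycling-like cells, and each class overlapped the next.

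The aldolase ALDOA gave few counts, 251, 256 and 273 UMIs in naïve, sham and SCI blood. It was highest in monocyte-like cells, at 26.9, 24.3 and 45.6 CPM, from 49 UMIs in all. Its level is uncertain, because the count table lists beside it the gene model AC093512.2, which held 1 UMI over the 4 libraries: reads that fall on overlapping models are assigned to neither. Reads shared with the mouse gene are lost in the same way. LDHA, PGK1, ENO1 and TPI1 also have processed copies elsewhere in the genome, and how reads shared with these were counted was not tested.

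The regulated entry steps had another distribution. SLC2A3 (GLUT3), the high-affinity transporter of leukocytes, was highest in monocyte-like cells, at 213, 243 and 433 CPM in naïve, sham and SCI blood, and stood at 135, 120 and 127 CPM in basophil or mast-like and at 81.7, 86.0 and 125 CPM in CD4 T-like cells. SLC2A1 (GLUT1), the broadly expressed transporter, went the other way: it was highest by mean in B-like cells, at 54.8, 47.8 and 45.4 CPM, and lowest in monocyte-like cells, at 8.96, 6.07 and 0 CPM. The B-like range cleared that of every class but NK-like, which rested on 4 UMIs of SLC2A1 in all. B-like cells, lowest of all in the summed genes, therefore held most of this one transporter.

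Hexokinase 2, the inducible hexokinase, was highest in the myeloid classes. It was at 67.9, 40.1 and 45.6 CPM in monocyte-like cells and at 40.1, 29.6 and 20.2 CPM in basophil or mast-like cells, ranges that met, followed by B-like cells at 5.82, 7.07 and 8.12 CPM. CD4 T-like cells held 0.579, 0.296 and 0.183 CPM, from 6 UMIs in the 3 libraries. The constitutive hexokinase HK1 carried most of the pair over all cells: HK2 was 4.81% (3.22 to 6.88%), 3.64% (2.09 to 5.84%) and 2.27% (1.24 to 3.77%) of the HK1 and HK2 UMIs in naïve, sham and SCI blood at equal depth.

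EGLN3 (PHD3), a prolyl hydroxylase that is itself a HIF target, was largely restricted to CD8 T-like cells. It stood there at 116, 66.2 and 118 CPM in naïve, sham and SCI blood, and it was the fourth of the genes that led this cluster although it took no part in the clustering. Every other class with more than 3 EGLN3 UMIs over the 3 blood libraries lay at 16.2 CPM or below, and NK-like cells, with 3 UMIs, at 26.3, 0 and 25.4 CPM. At equal depth 12.04% (9.65 to 14.8%), 7.28% (5.36 to 9.62%) and 11.6% (9.95 to 13.3%) of CD8 T-like cells had an EGLN3 UMI. In mouse barcodes, where free RNA alone gives human counts, 0 of 1396, 1 of 1955 and 0 of 1214 had one in naïve, sham and SCI blood. Its partner EGLN1, the main oxygen sensor of most cells, had 26, 14 and 53 UMIs in the thinned CD8 T-like cells against 87, 48 and 184 for EGLN3, so that EGLN3 was 77.0%, 77.4% and 77.6% of the pair there, against 12%, 8% and 12.1% in B-like cells.

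The balance of lactate dehydrogenase subunits also followed the class. LDHB favours the return of lactate to pyruvate. LDHA was 28.4%, 28.5% and 28.7% of the LDHA and LDHB UMIs in CD8 T-like cells of naïve, sham and SCI blood, 39.6%, 41.3% and 39.1% in CD4 T-like cells, 63.4%, 64.9% and 63.2% in B-like cells, and 86.5%, 84.1% and 75% in monocyte-like cells, the last of these from 12 UMIs. In CD8 T-like, CD4 T-like and B-like cells the ranges over the 3 libraries were narrow and did not overlap each other. B-like cells had little of either subunit (LDHB 243, 227 and 255 CPM), CD8 T-like cells much LDHB (1418, 1353 and 1383 CPM).

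**Figure D2:**
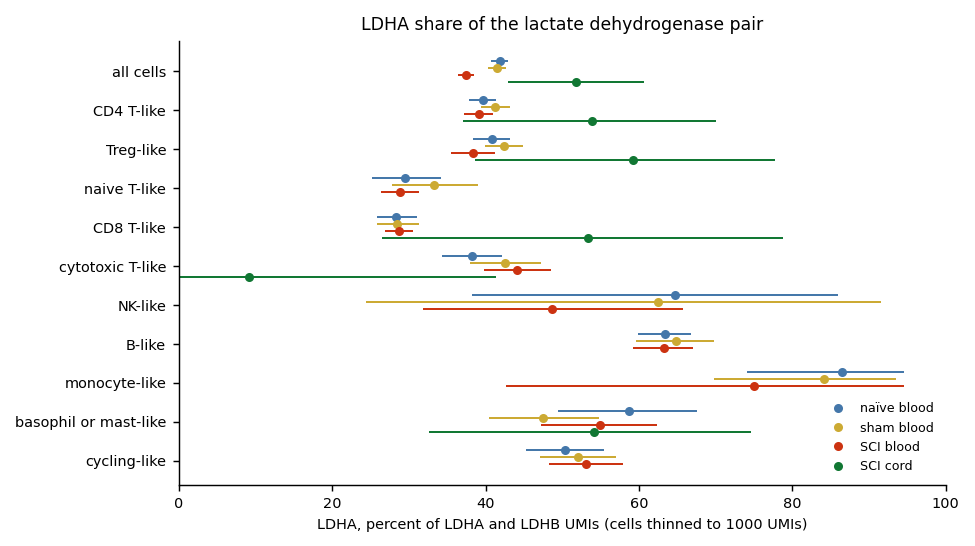
LDHA as a percent of the LDHA and LDHB UMIs (horizontal axis) for each cell class and library after thinning to 1000 UMIs per cell, with points for the share and lines for its exact binomial 95% interval. The blood libraries lie close together in CD4 T-like, CD8 T-like and B-like cells and further apart in classes of few UMIs, and SCI cord lies to the right of SCI blood over all cells (51.9% against 37.5%).

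Over 28 profiles, each a class in 1 blood library with at least 20 cells, the non-member genes whose level was ordered most like the summed 10 genes were VPS29, CTSB, RTN3, MYL6 and VIM, with Spearman coefficients of 0.82, 0.82, 0.81, 0.79 and 0.78 among 3807 candidates. Profiles of a library share its depth, so that these are descriptions. Of the 10 genes themselves PKM followed the sum most closely (0.78), and SLC2A1 (-0.55) and EGLN3 (-0.53) ran against it. Each of the 10 is itself part of the sum, so that their coefficients cannot be set against those of non-members.

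Blood libraries were then compared to ask what surgery, and injury of the cord, changed in circulating cells. In sham against naïve blood, 0 of the 10 genes differed by 2-fold in either direction (over all genes tested, 0.255% were higher and 1.16% lower by that much). Summed, the 10 genes held 2872 CPM in sham and 2723 CPM in naïve blood, a log2 ratio of 0.08 (0.06 to 0.09), beside a median of 0.07 over all 8643 genes tested. The largest ratio was that of SLC2A3, with 62.7 CPM against 48.8 CPM (0.36; 0.24 to 0.48), and the lowest that of HK2, with 4.48 CPM against 5.62 CPM (-0.32; -0.73 to 0.07). HK2 was below the minimum mean of 10 CPM in all 3 blood comparisons, and the other 9 genes passed it.

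In SCI against naïve blood, 1 gene of the 10, EGLN3, was higher by 2-fold (0.727% of all genes tested were) and 0 were lower (1.72%). In SCI against sham blood, again EGLN3 was higher (0.277%) and 0 were lower (0.774%). The last 2 comparisons share the SCI library. EGLN3 held 11.1, 10.2 and 28.4 CPM in naïve, sham and SCI blood, from 244, 209 and 612 UMIs, a log2 ratio of 1.36 (1.14 to 1.58) over naïve and of 1.476 (1.25 to 1.71) over sham blood. CD8 T-like cells were 10.4%, 13.3% and 24.2% of the cells in naïve, sham and SCI blood. Within CD8 T-like cells the ratio over naïve blood was 0.02 (-0.23 to 0.27) and that over sham blood 0.83 (0.56 to 1.11). With each class given the same weight in both libraries, 0 of the 10 genes were higher by 2-fold in either comparison. EGLN3 in CD4 T-like cells, a far lower level, was 2.70, 3.55 and 6.76 CPM.

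SLC2A3 had the next highest ratio after EGLN3 in both SCI comparisons. It stood at 48.8, 62.7 and 77.2 CPM in naïve, sham and SCI blood, which gives a log2 ratio of 0.66 (0.55 to 0.77) over naïve and 0.30 (0.19 to 0.40) over sham blood, both under 2-fold. The higher SCI level did not rest on 1 class: it was above the sham level in 10 of 10 classes, in 6 of them beyond counting error (NK-like cells had 4 UMIs and 1), and above the naïve level in 8 of 10, in 6 beyond counting error. Such a spread was not particular to SLC2A3. The summed 10 genes were above sham in 9 of 10 classes (6 beyond counting error) and above naïve in 7 (6 beyond). Over sham blood PKM was higher in 8 classes (5 beyond), TPI1 in 10 (0 beyond) and LDHA in 1. In monocyte-like cells SLC2A3 was 433 CPM in SCI blood against 213 CPM in naïve blood, from 76 and 166 UMIs (1.03; 0.62 to 1.43), with 18 such cells in SCI and 140 in naïve blood. In cytotoxic T-like cells it was 67.8 CPM against 31.7 CPM (1.09; 0.58 to 1.63), and in B-like cells 51.1 CPM against 28.2 CPM (0.85; 0.49 to 1.22). Plasma-like cells, which were 6.04% of naïve blood cells and almost lacked SLC2A3 (3.23 CPM), moved with these values: without them and without immunoglobulin genes the log2 ratio over all cells was 0.36 for SCI over naïve, 0.06 for sham over naïve and 0.30 for SCI over sham blood. CD8 T-like cells, at 26.3, 26.7 and 30.9 CPM, had little SLC2A3 in any library.

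The remaining 8 genes had log2 ratios between -0.81 (HK2) and 0.16 (ENO1) in SCI against naïve blood, and between -0.48 (HK2) and 0.23 (SLC2A1) in SCI against sham blood. Of all 10 genes, 8 were above 0 in SCI against naïve blood (63.2% of all genes past the minimum were). The counting interval lay above 0 for 4 and below 0 for 1. In SCI against sham blood 6 were above 0 (53%), and the interval lay above 0 for 5 and below 0 for 2. The share of all genes with such intervals is not given here, so that the interval counts do not set these genes apart. HK2 was at 5.62, 4.48 and 3.20 CPM in naïve, sham and SCI blood, while monocyte-like cells, in which it was highest, were 2.21%, 1.94% and 0.303% of the cells. TPI1 stood at 360.0, 360.4 and 359.9 CPM.

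**Figure D3:**
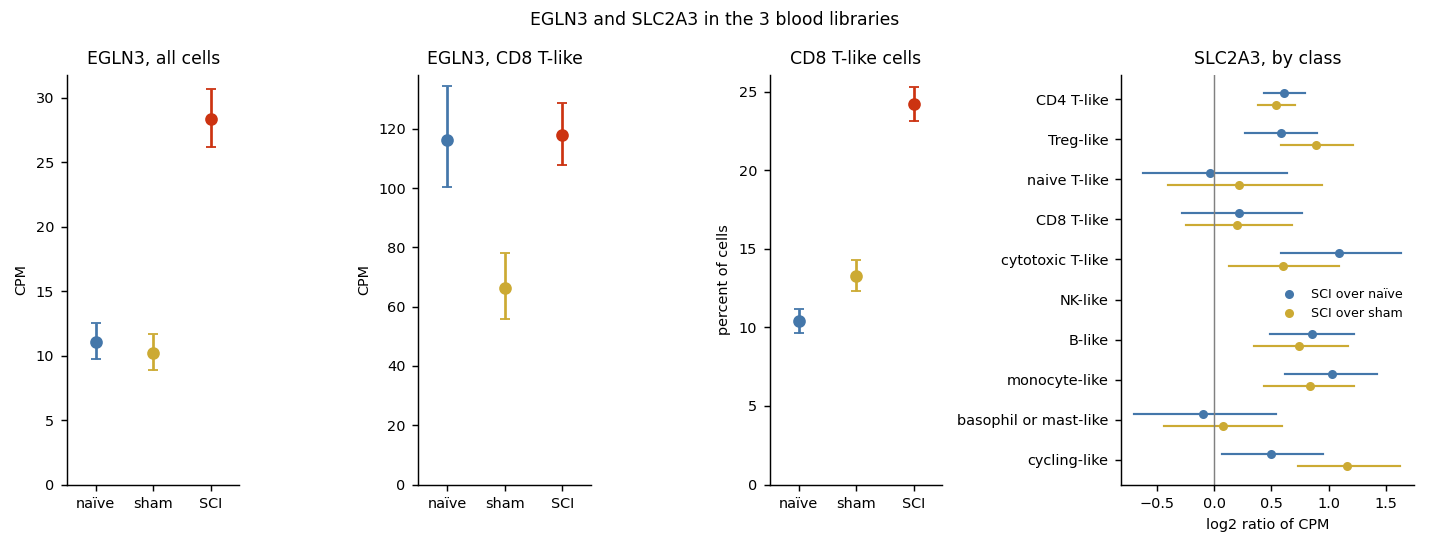
From left to right, the EGLN3 level over all cells and within CD8 T-like cells (CPM), the percent of cells that were CD8 T-like, and the log2 ratio of SLC2A3 in SCI over naïve and SCI over sham blood in each class, with lines for counting intervals (NK-like cells, with under 3 SLC2A3 UMIs in a library, have no point). EGLN3 over all cells and the CD8 T-like share are both highest in SCI blood, whereas the CD8 T-like level of EGLN3 is 116 CPM in naïve and 118 CPM in SCI blood.

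Of the other glycolysis and hypoxia genes, 0 differed by 2-fold in blood, where 0.255%, 0.727% and 0.277% of all genes tested were higher and 1.16%, 1.72% and 0.774% lower for sham over naïve, SCI over naïve and SCI over sham, respectively. Of 29 further glycolysis genes 13 passed the minimum. The highest and lowest were BPGM (0.30), which makes the oxygen-releasing 2,3-bisphosphoglycerate, and the transporter SLC2A6 (-0.48) in sham against naïve, LDHB (0.44) and SLC2A6 (-0.63) in SCI against naïve, and LDHB (0.18) and the lactate exporter SLC16A3 (-0.20) in SCI against sham blood. Of 34 further hypoxia genes 22 passed. CITED2 (0.51) and DDIT4 (-0.37), TXNIP (0.76) and NDRG1 (-0.21), and DDIT4 (0.94) and NDRG1 (-0.33) were highest and lowest in the same order of comparisons. SLC2A6 in both comparisons, LDHB and TXNIP over naïve blood, CITED2, DDIT4 in both comparisons and NDRG1 against sham blood lay outside the range from the 10th to the 90th percentile of all genes tested, which was -0.23 to 0.31, -0.27 to 0.35 and -0.21 to 0.23. TXNIP, which restrains glucose uptake, was at 1183 CPM in SCI and 700.1 CPM in naïve blood.

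The cord was compared with SCI blood to see whether cells in the lesion differ from those in the circulation. At equal depth the 10 genes together did not stand out: they held 349 UMIs, or 2958 CPM, in cord and 15876 UMIs, or 2675 CPM, in SCI blood, a log2 ratio of 0.15 (-0.01 to 0.30). A cell held a median of 3 such UMIs of 1000 in cord and 2 in blood, with a highest cell of 11 and 18. Of the 6 genes past the level filter, 1 was higher by 2-fold, SLC2A3 (8.84% of the 3814 genes tested were), and 0 were lower (4.35%). Of the genes under the filter, HK2 was higher by 2-fold from 3 cord UMIs, and EGLN3 had no cord UMI. Across the 6 genes that passed the minimum mean of 50 CPM the median log2 ratio was 0.24, beside 0.03 over all genes tested. The 5 cord cells with most UMIs of the 10 genes held 12.9% of them, and without these cells the summed ratio was 0.01.

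**Figure D4:**
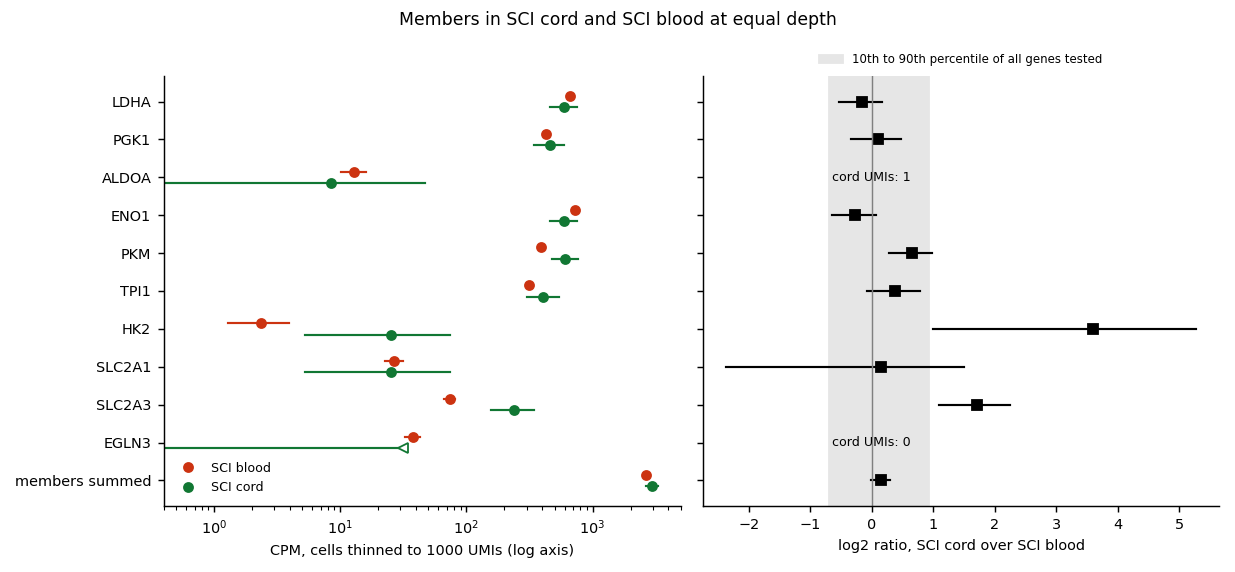
Left, level of each gene in SCI blood and SCI cord at equal depth (CPM, log axis) with exact Poisson intervals, an open triangle marking the upper limit where no cord UMI was found; right, the log2 ratio of cord over blood with its counting interval, beside the range from the 10th to the 90th percentile of all genes tested. SLC2A3 (1.72) and HK2 (3.602, from 3 cord UMIs) lie to the right of that range.

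SLC2A3 carried the clearest difference. It held 28 UMIs (237 CPM; 158 to 343) in the 118 cord cells and 436 UMIs (73.5 CPM) in SCI blood, a 3.28-fold higher level (log2 ratio 1.72; 1.08 to 2.24). At equal depth 18.6% (12.1 to 26.9%) of cord cells had an SLC2A3 UMI against 6.66% (6.04 to 7.32%) of SCI blood cells, and 55.9% against 20.2% without thinning. In mouse barcodes of the cord library, whose median depth was 26252 UMIs of both species, 2 of 92 (2.17%) had a human SLC2A3 UMI. The cord level was higher in each of the 5 classes of 10 or more cells in cord and blood, in which 59.8%, 62.3%, 68.9%, 69.8% and 57.7% of all genes tested were above 0 in the order given here: 333 CPM against 121 CPM in CD4 T-like cells (9 and 175 UMIs), 176 CPM against 76.4 CPM in Treg-like cells (3 and 55 UMIs), 250 CPM against 31.3 CPM in CD8 T-like cells (3 and 45 UMIs), 200 CPM against 78.0 CPM in cytotoxic T-like cells (2 and 33 UMIs), and 214 CPM against 146 CPM in basophil or mast-like cells (6 and 20 UMIs). The counting interval excluded 0 in 2 of these 5 classes, CD4 T-like (0.31 to 2.42) and CD8 T-like (0.67 to 4.64). Over the T cell-like classes together the log2 ratio was 1.82 (0.99 to 2.48), and with each class given its cord share in both libraries 0.96.

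In the random draw used for equal depth, PKM was the only chain enzyme whose interval excluded 0. It held 72 UMIs (610.2 CPM) in cord and 2316 UMIs (390 CPM) in blood (0.65; 0.29 to 0.98). Over all such draws the expected ratio was lower for PKM, 0.31, and was 0.45 for TPI1. With each class given its cord share in both libraries the ratio was 0.38 for PKM and 0.16 for TPI1. Without thinning the ratio of PKM was 0.28 (0.16 to 0.40). In the T cell-like classes alone it was 522 CPM against 392 CPM (0.43; -0.11 to 0.90). TPI1 stood at 407 CPM against 315 CPM (0.38; -0.08 to 0.78), and without thinning, from 513 and 7763 UMIs, at 483 CPM against 360 CPM (0.43; 0.29 to 0.55), an interval that excluded 0. PGK1 was at 458 CPM against 431 CPM (0.10; -0.33 to 0.47). LDHA and ENO1 were not above blood: LDHA held 593 CPM against 666 CPM (-0.16; -0.53 to 0.17) and ENO1 593 CPM against 720.3 CPM (-0.27; -0.64 to 0.06). ALDOA had 1 cord UMI and SLC2A1 3, against 76 and 159 in blood, and no difference was detectable at this depth. Without thinning ALDOA had 32 cord UMIs and stood at 30.1 CPM against 12.7 CPM (1.27; 0.67 to 1.78), and 13 of the 32 UMIs came from the 7 monocyte-like and 8 from the 6 cycling-like cord cells. CD4 T-like cells held 12.4 CPM of ALDOA in cord, from 2 UMIs, and 12.1 CPM in SCI blood. Unthinned, 100% of monocyte-like cord cells had an ALDOA UMI against 33.3% in SCI blood, at median depths of 19599 and 10328 UMIs. For cycling-like cells the shares were 66.7% and 17.95%, at 29551 and 12736 UMIs.

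HK2 had 3 UMIs in cord and 14 in SCI blood at equal depth, 25.4 CPM (5.24 to 74.3) against 2.36 CPM (log2 ratio 3.602; 0.99 to 5.27). Without thinning, where cord had 20 UMIs, the ratio was 2.58 (1.76 to 3.29). These UMIs lay mainly in classes that also hold HK2 in blood: 9 in monocyte-like, 5 in basophil or mast-like and 4 in B-like cells, which were 5.93%, 23.7% and 7.63% of cord cells against 0.303%, 2.31% and 15.8% of SCI blood cells. In basophil or mast-like cells HK2 was at 19.4 CPM in cord and 20.2 CPM in SCI blood. At equal depth 2 of 9 B-like cord cells had an HK2 UMI, against 7 of 940 in SCI blood. With each class given its cord share in both libraries the log2 ratio of HK2 at equal depth was 1.89. The part of class makeup in the HK2 values was not tested.

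EGLN3 had 0 UMIs in cord against 222 in SCI blood at equal depth, at least 1.47-fold lower when 3 UMIs are taken as the limit that a count of 0 allows. Without thinning 2 UMIs were found in cord, 1.88 CPM (0.228 to 6.80) against 28.4 CPM, 1 in a Treg-like and 1 in a basophil or mast-like cell. CD8 T-like cells were 10.2% of cord cells and 24.2% of SCI blood cells. Of 12 CD8 T-like cells of the cord, 0 had an EGLN3 UMI even unthinned, where 26.0% of those in SCI blood had one. The interval for 0 of 12 cells was 0 to 26.5%, which includes the blood share, so that counted over cells no difference was shown. Counted over UMIs alone, which takes those of 1 cell as independent, the limit of 3 UMIs over these cells was 41.7 CPM. That limit lay 2.83-fold below the 118 CPM of SCI blood. At equal depth the same limit was 250 CPM, above the 128 CPM of SCI blood, so that the thinned cells give no bound.

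Within the classes the summed genes were close between cord and blood. The log2 ratio of cord over SCI blood was 0.17 (-0.16 to 0.47) in CD4 T-like cells (27 cord cells), 0.20 (-0.25 to 0.58) in Treg-like (17), 0.18 (-0.37 to 0.63) in CD8 T-like (12), -0.03 (-0.73 to 0.53) in cytotoxic T-like (10) and -0.20 (-0.57 to 0.15) in basophil or mast-like cells (28). The medians over all genes tested were 0.12, 0.22, 0.39, 0.43 and 0.15 in the same classes. A cluster at a finer resolution split the basophil or mast-like cord cells into 15 that kept the name and 13 led by the eosinophil gene EPX, of which SCI blood had 6. In the 15 the summed ratio was -0.10 (-0.59 to 0.34), and ENO1 had 2 UMIs in cord against 94 in blood (-2.11; -5.50 to -0.54).

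The lactate dehydrogenase pair differed between cord and SCI blood over all cells. In cord LDHA was 51.9% (43.1 to 60.5%) of the pair, against 37.5% (36.6 to 38.4%) in SCI blood. LDHB held 65 UMIs (551 CPM) in cord and 6593 UMIs (1111 CPM) in blood, a log2 ratio of -1.001 (-1.39 to -0.66), while the interval of LDHA included 0. By class the LDHA share in cord and SCI blood was 53.8% (37.2 to 69.9%) and 39.1% in CD4 T-like cells. It was 59.3% (38.8 to 77.6%) and 38.4% in Treg-like and 53.3% (26.6 to 78.7%) and 28.7% in CD8 T-like cells. In cytotoxic T-like cells it was 9.09% (0.23 to 41.3%) and 44.2%, where cord had 1 UMI of LDHA and 10 of LDHB. In basophil or mast-like cells it was 54.2% (32.8 to 74.45%) and 54.9%. The cord intervals of CD4 T-like and CD8 T-like cells included the blood share, and that of Treg-like cells overlapped the blood interval (35.7 to 41.1%). Over all random draws the expected LDHA log2 ratio in Treg-like cells was -0.10, beside 0.51 in the draw used. LDHB was lower also in the T cell-like classes together, at 731 CPM against 1308 CPM (-0.82; -1.28 to -0.43). By class its ratio was -0.89 (-1.69 to -0.27) in CD4 T-like, -0.69 (-1.765 to 0.09) in Treg-like and -1.15 (-2.56 to -0.20) in CD8 T-like cells. It was 0.51 (-0.63 to 1.34) in cytotoxic T-like and -0.57 (-1.68 to 0.29) in basophil or mast-like cells. Naïve T-like cells, with 1895 CPM of LDHB in SCI blood, were 9.8% of its cells and 0.85% of cord cells. The part of class makeup was not tested. LDHB was the 1 gene of the 8 further glycolysis genes past the minimum (of 29) to differ by 2-fold at equal depth (4.35% of all genes tested were lower). After it came PFKL (-0.79; -2.21 to 0.16), a subunit of the pathway's committed step, and the lactate carrier SLC16A7 (-0.54; -2.31 to 0.55), and highest were PGAM1 (0.35; -0.19 to 0.81), HK1 (0.27; -0.66 to 0.98) and GAPDH (0.25; 0.07 to 0.43). The median of the 8 was 0.05. Without thinning 11 passed, and 2 were higher by 2-fold (6.8% of the 3823 genes tested were) and 0 lower (3.09%). Named after their values were seen, these were SLC16A3 with 122 UMIs in cord (2.29; 1.99 to 2.57) and SLC2A6 with 91 UMIs (1.44; 1.104 to 1.75), while LDHB was at -0.94 (-1.06 to -0.83).

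Hypoxia genes outside the glycolytic chain spread further. Of 34, 13 passed the minimum, 11 of them were above 0 (52.5% of all genes tested were), and 4 were higher by 2-fold (8.84%), with a median of 0.52. Highest were DDIT4 (REDD1), an inhibitor of mTORC1, with 15 UMIs (127 CPM) in cord and 150 UMIs (25.3 CPM) in blood (2.37; 1.46 to 3.098), the transcriptional repressor BHLHE40 (DEC1) with 13 UMIs (110 CPM) and 172 UMIs (29.0 CPM) (1.98; 0.99 to 2.74), and NDRG1 with 15 UMIs (127 CPM) and 343 UMIs (57.8 CPM) (1.18; 0.28 to 1.88). HIF1A itself, named because it was the remaining gene past 2-fold, and whose protein rather than its transcript is set by oxygen, held 12 UMIs (102 CPM) against 308 UMIs (51.9 CPM) (1.03; 0.00 to 1.80), and without thinning its ratio was 0.74 (0.43 to 1.04), under 2-fold. Lowest were TXNIP, at 746 CPM against 1386 CPM (-0.89; -1.21 to -0.59), the oxidoreductase ERO1A (-0.36; -1.66 to 0.55) and CITED2 (0.18; -1.24 to 1.14). Basophil or mast-like cells, 23.7% of cord and 2.31% of SCI blood cells, held 9 of the 13 BHLHE40 and 8 of the 15 NDRG1 cord UMIs. Within this class BHLHE40 was at 321 CPM against 270 CPM (0.31; -0.99 to 1.33). NDRG1 was there at 286 CPM against 124 CPM (1.25; -0.22 to 2.49). In the T cell-like classes alone DDIT4 (2.90; 1.85 to 3.70) and TXNIP (-1.29; -1.81 to -0.85) differed the same way, NDRG1 was at 44.8 CPM against 59.0 CPM (-0.18; -2.68 to 1.17), and 6 of 12 were above 0 (60.4% of all genes tested were), with 2 higher (10.6%) and 2 lower (4.23%) by 2-fold.

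**Figure D5:**
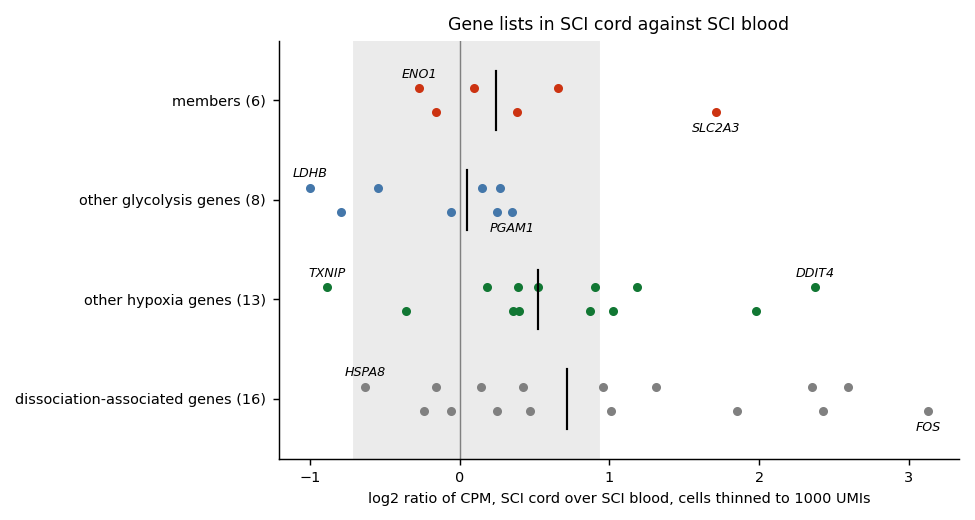
Log2 ratio of SCI cord over SCI blood at equal depth (horizontal axis) for the genes of 4 lists past the level filter (number in brackets), with a bar at each median and a shaded range from the 10th to the 90th percentile of all genes tested. Of the 6 of the 10 genes past the filter SLC2A3 lies highest (1.72), and the dissociation-associated list reaches furthest, with FOS at 3.13.

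Genes known to respond to enzymatic dissociation moved with the cord as well. Of 20 such genes 16 passed, 12 were above 0 (52.5% of all genes tested were) and 7 were higher by 2-fold (8.84%), with a median of 0.72. Named after their values were seen, FOS was at 1110 CPM in cord and 127 CPM in blood (3.13; 2.85 to 3.40), FOSB at 280 CPM and 47.0 CPM, and DUSP1 at 542 CPM and 102 CPM. The lowest of the list was the heat shock gene HSPA8, at 1119 CPM against 1740 CPM (-0.63; -0.90 to -0.39). The cord was digested with papain at 37 °C and passed over magnetic beads while the blood was not, and the part of this in the cord values was not tested.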

How the data were processed

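The deposited files held UMI counts per gene and cell barcode, which the authors made with Cell Ranger 3.1.0 on a combined human (hg38) and mouse (mm10) reference. No values other than these counts were used. Barcodes with over 50% human UMIs were kept, cells beyond 3 median absolute deviations were removed, and marked doublets were removed only above 3000 genes (71, 90, 97 and 0 cells of the naïve, sham, SCI blood and cord libraries, of 436, 277, 378 and 0 marked by the highest scrublet scores, in scanpy 1.11.5, at an assumed 0.8% per 1000 barcodes; the automatic threshold of scrublet marked 0, 4, 192 and 10). The kept cells held 29402676, 27695487, 31179110 and 1430777 human UMIs. Clustering used 2000 variable genes without the 10 genes and the listed glycolysis and hypoxia genes, 30 components, 15 neighbours and Leiden resolution 0.8. Classes were named from marker lists.

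CPM left out ribosomal and mitochondrial genes. For cord against blood, cells were thinned to 1000 UMIs (seed 1). Ratios used 0.5 added counts and conditional binomial intervals, levels exact Poisson intervals and shares exact Clopper-Pearson intervals (scipy 1.17.1), all at 95%. Genes were tested above a mean of 50 CPM (cord), 10 CPM (blood) or, in classes with under 40 cord cells, 200 CPM, the last chosen after seeing the data. The floor for a count of 0 was 3 UMIs. On simulated counts the intervals covered the true ratio in 97.5% of changed genes for cord against blood.

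The 10 genes, the lists and the tests were chosen with earlier results of these data known. Of the other glycolysis and hypoxia genes, the 3 highest and 3 lowest in cord and the highest and lowest in each blood comparison were named, with isoform partners and the 5 genes most like the summed 10. Alternatives covered thinning depth, denominators, edgeR 4.0.16 TMM factors (no test), filters, doublets, added counts, clustering and class weights.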

Additional observations from a re-analysis of the deposited data

Results flagged for a closer look

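In 8 pairs of cell classes the same gene moved in opposite directions in the same blood comparison, each beyond counting error. These are the extreme classes of each comparison, with 1 library per group, and the difference between the classes was not tested. How often other genes show such pairs is not given here, so that the count is not a trait of the 10 genes. In sham against naïve blood the log2 ratio of PGK1 was 0.28 in cytotoxic T-like and -0.34 in naïve T-like cells, that of ENO1 0.22 in cycling-like and -0.27 in basophil or mast-like cells, and that of TPI1 0.25 in cycling-like and -0.20 in B-like cells. In SCI against naïve blood ENO1 stood at 0.19 in cytotoxic T-like and -0.27 in basophil or mast-like cells, and TPI1 at 0.33 in cycling-like and -0.18 in B-like cells. In SCI against sham blood PGK1 stood at 0.46 in monocyte-like cells, of which SCI blood had 18, and -0.19 in cytotoxic T-like cells, and ENO1 at 0.23 in cytotoxic T-like and -0.28 in cycling-like cells. The widest pair was EGLN3 in SCI against sham blood, at 0.92 in CD4 T-like cells (37 and 24 UMIs) and -1.36 in B-like cells (10 and 19 UMIs).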

How the results depend on the processing

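No paired analysis was possible because each group was 1 library, and no replicate could be left out. Of 822 values recomputed under other settings, 144 summary values and 590 single-gene values moved by less than their counting interval (counts of genes, by no more than 1.5 times), 27 and 61 moved further, and none that was called reversed. The count of genes higher by 2-fold in cord was 2 over all 10 genes, with HK2 under the level filter. It was 1 when cells were thinned to 2000 UMIs, thinned over all human genes, or taken without basophil or mast-like cells. With the cord class shares in both libraries it was also 1. Without thinning it was 3, where ALDOA joined HK2 and SLC2A3. The summed ratio in cord CD8 T-like cells, 12 cells, was -0.58 when thinned over all human genes. In cord against blood the summed ratio lay between -0.00 (TMM factors) and 0.19. For sham against naïve blood it was 0.0487 with cells thinned to 1000 UMIs, 0.0583 with CPM over all human genes, 0.0106 with TMM factors and -0.0112 with equal class weights. Under the main setting the summed genes held 2885 CPM in SCI blood, above the 2723 CPM of naïve and 2872 CPM of sham blood. The summed ratio of SCI against naïve blood was -0.0342, thus below 0, over all human genes, 0.0050 with TMM factors and 0.0461 with equal class weights. For SCI against sham blood it was 0.0285 thinned, -0.0924, again below 0, over all human genes and 0.0574 with equal class weights. With equal class weights 0 genes were higher by 2-fold in either SCI comparison. The level of cytotoxic T-like cells in blood was 2287 CPM at resolution 0.4 and 2240 CPM at resolution 1.5. With no filter on mean CPM and at least 20 counts, the share of all genes past 2-fold was 17.0% higher and 10.1% lower in cord, 2.15% and 2.85% in sham against naïve, 3.28% and 4.38% in SCI against naïve, and 1.92% and 3.35% in SCI against sham blood. The cord library of 118 cells limits single genes with few UMIs, namely HK2, SLC2A1, ALDOA and EGLN3.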
